A study of Rattus norvegicus with 12 samples.

Results

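The insulin-like growth factor (IGF) system was examined through 10 genes: the ligands Igf1 and Igf2, the receptors Igf1r and Igf2r, and the binding proteins Igfbp2, Igfbp3, Igfbp4, Igfbp5, Igfbp6 and Igfbp7. They were chosen by name, and all 10 were found among the 33294 genes of the count table. Of these, 9 had at least 1 count in a library, and Igf1 had none. The RNA was poly(A) RNA of PAC1 cells, a rat pulmonary artery smooth muscle cell line, sequenced in 12 libraries of 4 groups with 3 libraries each. D1 was differentiated PAC1 (PAC1-D) treated with control siRNA. P was proliferative PAC1 (PAC1-P), a culture of the same line kept by more frequent and more dilute passaging, also given control siRNA. RBPMS KD1 was PAC1-D treated with siRNA against Rbpms, and MBNL KD was PAC1-D treated with siRNAs against Mbnl1 and Mbnl2 together. All cells thus came from 1 line and all received siRNA, at 90 pmol for 200000 cells per well in the labels, with a second treatment after 24 h and harvest 48 h later; the methods of the study give a longer schedule and seeding densities that differ between PAC1-D and PAC1-P. The study asked how far each RNA-binding protein takes part in the switch between the contractile and proliferative states, above all through alternative splicing. Counts per gene, which are used here, do not show splicing.

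IGF1 and IGF2 are secreted growth factors that act through the IGF1 receptor, a tyrosine kinase that signals by way of the insulin receptor substrates to PI3K, AKT and mTOR. The IGF2 receptor, also the cation-independent mannose 6-phosphate receptor, carries IGF2 and lysosomal enzymes to lysosomes and has no kinase. The binding proteins hold the ligands outside the cell and can block or prolong their action, until proteases such as the pappalysins cut them. In arteries the system is known for driving growth and survival of smooth muscle cells and for a part in their contractile state.

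Total counts per library lay between 80842635 and 90771289. No pair of libraries in a group was a duplicate, and MBNL KD replicate 3 stood farthest from its group, with a chi-square per degree of freedom of 13.6 and 13.7 against its group mates, whereas the other pairs lay between 3.79 and 8.14. Rbpms fell to 25.0% of its D1 level in RBPMS KD1 and to 6.30% in P, and Mbnl1 and Mbnl2 fell to 23.8% and 29.7% of D1 in MBNL KD. Summed over 8 smooth muscle markers, the scaled counts were 800692 to 841510 in D1, 401833 to 416767 in RBPMS KD1, 643787 to 653039 in MBNL KD and 17286 to 18330 in P. Summed endothelial markers were 66.2 to 72.4 in D1, 482 to 600 in P, 162 to 163 in RBPMS KD1 and 83.2 to 126 in MBNL KD, with Cdh5 and Kdr at 0 outside P. Leucocyte markers summed to 77.4 to 99.96 in D1, 77.3 to 123 in P, 83.0 to 121 in RBPMS KD1 and 120 to 134 in MBNL KD, with Ptprc at 0 in D1 and MBNL KD, and Csf1r was called higher in MBNL KD (2.46-fold, edgeR adjusted p = 2.44e-04). The 4 fibroblast markers summed to 12958 to 13892 in D1, 16585 to 17376 in P, 11390 to 12085 in RBPMS KD1 and 8148 to 8719 in MBNL KD. Such sums are led by the most abundant genes, and single smooth muscle and fibroblast markers went both ways. Of the endothelial markers tested, 3 of 3 (Tek, Vwf and Cdh5, the last tested only through P) were called higher in P and 2 of 2 (Tek and Vwf) in RBPMS KD1, and 0 of 2 passed the test in MBNL KD. The shares of all genes called higher were 16.4% in P, 3.06% in RBPMS KD1 and 6.1% in MBNL KD. At an adjusted p under 0.05, 7 smooth muscle markers were lower and 1, Des, was higher in both P and RBPMS KD1. In MBNL KD 5 of them were lower and 3 higher, with Des called there and in P. Of the fibroblast markers, 2 were higher and 1 lower in P, 3 higher and 1, Lum, lower in RBPMS KD1, and 1 higher and 3 lower in MBNL KD. The part of these shifts in the results that follow was not tested, and in bulk RNA fewer cells of a type and less RNA per cell cannot be told apart.

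The start regions of 4 of the genes are shown because these genes carried the main differences: Igfbp4 and Igfbp7 moved strongly and in opposite directions between the culture states, Igf2r moved in opposite directions in the knockdowns, and Igfbp5 was lower in all 3 groups than in D1. Each is the 250 bases upstream of the RefSeq start, 5′ to 3′ on the gene's strand in build GRCr8. The windows lie at chr10:84491221-84491470 on the plus strand for Igfbp4, at chr14:31091486-31091735 on the plus strand for Igfbp7, at chr1:50526628-50526877 on the plus strand for Igf2r and at chr9:81914188-81914437 on the minus strand for Igfbp5. Capitals mark the matches, on either strand, to the TATA element TATAAA, the E-box CACGTG and the GC box GGGCGG.
Igfbp4: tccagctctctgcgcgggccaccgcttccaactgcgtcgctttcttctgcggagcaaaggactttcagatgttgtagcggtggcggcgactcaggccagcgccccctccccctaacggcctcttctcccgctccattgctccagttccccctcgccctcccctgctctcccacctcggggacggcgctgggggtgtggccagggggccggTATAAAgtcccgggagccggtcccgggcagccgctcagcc
Igfbp7: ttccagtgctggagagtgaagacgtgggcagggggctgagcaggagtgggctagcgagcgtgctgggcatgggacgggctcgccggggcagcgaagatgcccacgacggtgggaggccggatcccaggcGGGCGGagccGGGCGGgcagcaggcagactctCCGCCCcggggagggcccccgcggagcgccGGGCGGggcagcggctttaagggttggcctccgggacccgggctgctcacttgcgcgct
Igf2r: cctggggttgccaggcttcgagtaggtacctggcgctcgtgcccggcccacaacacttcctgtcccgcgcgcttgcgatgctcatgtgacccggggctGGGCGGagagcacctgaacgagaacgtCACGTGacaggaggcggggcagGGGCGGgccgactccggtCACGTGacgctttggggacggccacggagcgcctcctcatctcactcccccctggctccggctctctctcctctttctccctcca
Igfbp5: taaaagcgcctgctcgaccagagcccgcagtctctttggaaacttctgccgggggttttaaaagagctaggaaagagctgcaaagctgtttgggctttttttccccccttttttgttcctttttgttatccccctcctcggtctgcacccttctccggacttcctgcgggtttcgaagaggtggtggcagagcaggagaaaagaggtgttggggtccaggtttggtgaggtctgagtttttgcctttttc
The Igfbp4 window held 1 TATAAA, which 12.9% of 33469 rat windows of the same length held. The window of Igf2r held CACGTG in 2 places and GGGCGG in 2, motifs found in 5.59% and 30.5% of windows. In the Igfbp7 window GGGCGG occurred 4 times, and the Igfbp5 window held none of these motifs. No CArG box, the element bound by serum response factor, lay in these 4 windows, and 1.50% of all windows held one. CG dinucleotides numbered 21 in the Igfbp4 window, 26 in that of Igfbp7, 23 in that of Igf2r and 8 in that of Igfbp5, against a median of 5 over all windows. A match is a run of letters and not evidence of binding.

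The ligand RNAs were at or near the limit of detection in all 4 groups. Igf1 had 0 counts in each of the 12 libraries. The library totals exceeded the 55 M reads subsampled per sample, and low counts were even more often than odd in every library, with even-to-odd ratios of 2.06 to 2.36 for counts up to 20. Both show that mates were largely counted apart, so the limit for a gene at 0 is taken as 6 counts per library rather than 3. Igf2 had 6, 4 and 2 counts in D1, 2, 4 and 4 in P, 2, 8 and 0 in RBPMS KD1, and 2, 8 and 8 in MBNL KD. The Igf2 counts of all groups overlapped, and the gene did not pass the filter on low counts in any comparison, so that a difference was not detectable at this depth. Intervals and limits of this kind cover counting error only.

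PAC1-P cells had less receptor RNA than PAC1-D cells and a different set of binding protein RNAs, with Igfbp4 raised and Igfbp7 strongly lowered. Of the 8 genes tested in P against D1, 3 were called higher (Igfbp2, Igfbp3, Igfbp4) and 5 lower (Igf1r, Igf2r, Igfbp5, Igfbp6, Igfbp7), where called means an adjusted p under 0.05 by edgeR's quasi-likelihood test and a log2 fold change beyond 1 in size. Of all 16814 genes tested, 16.4% were called higher and 11.2% lower, and 77.9% had an adjusted p under 0.05 in either direction, as had 8 of the 8. Igfbp3 passed the filter only through P, so its call in that group followed from being tested. Levels are given as scaled counts, that is counts brought to 1 common library size, which may be compared between libraries but not between genes.

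**Figure D1:**
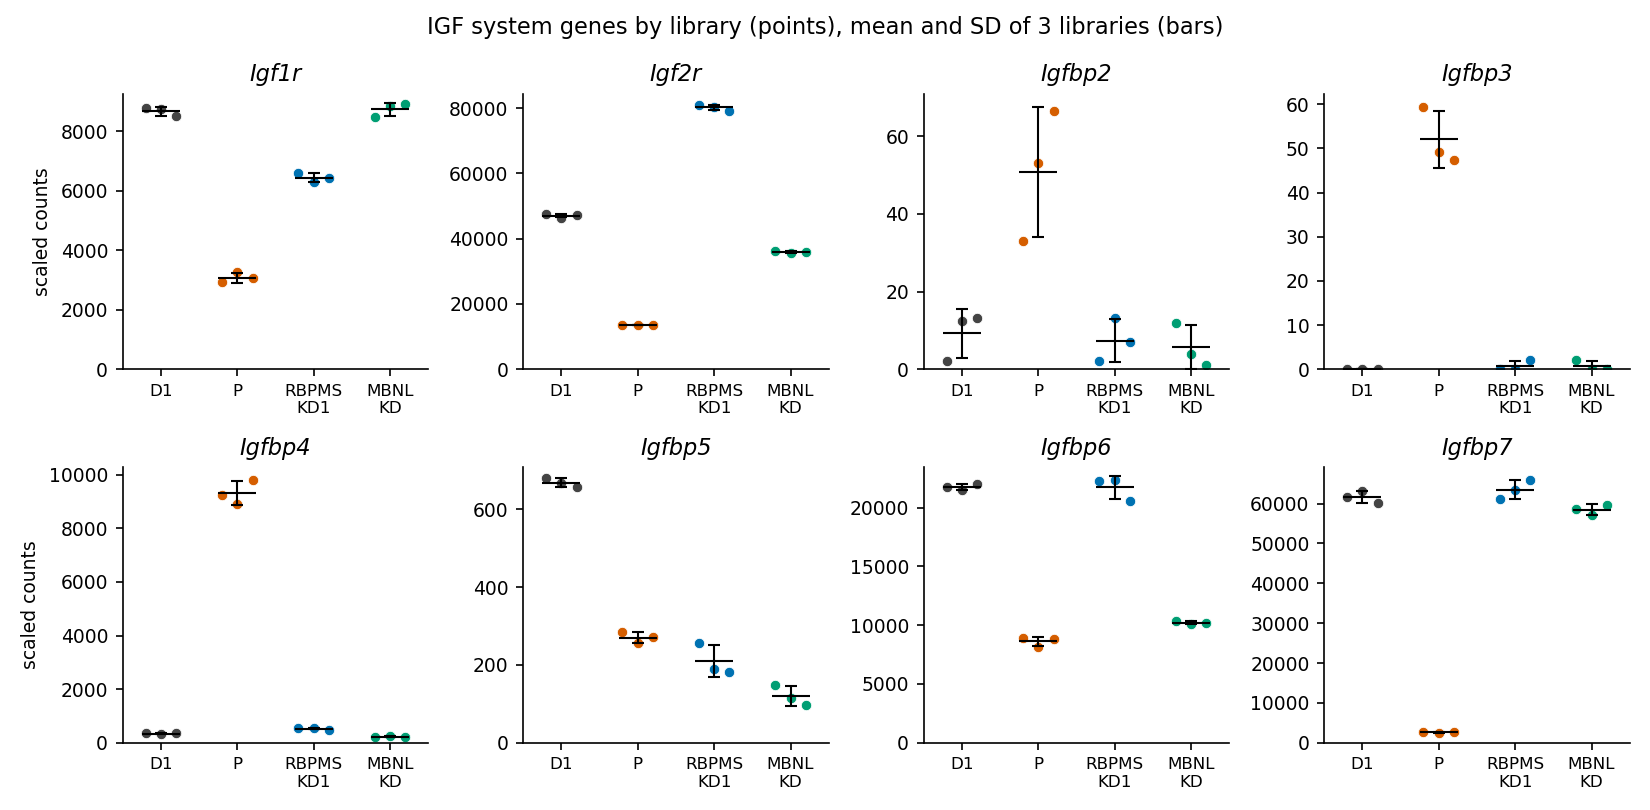
Scaled counts of the 8 IGF system genes that passed the filter in P against D1, with 1 point per library, the mean as a horizontal line and the SD over 3 libraries as bars, on linear axes from 0 that differ between panels. Igfbp4 stands at 9318 in P against 344 in D1, Igfbp7 at 2642 against 61643, and Igfbp5 is highest in D1.

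Igf1r, the signalling receptor, stood at 8757, 8742 and 8492 scaled counts in the D1 libraries and at 2917, 3252 and 3067 in P. The groups were well apart, and the level was 2.82-fold lower in P (log2 fold change -1.50, SE 0.034, adjusted p = 2.94e-28, edgeR). Igf2r, the scavenging receptor, had 47643, 46467 and 47200 in D1 and 13692, 13610 and 13561 in P. It was 3.47-fold lower in P (log2 fold change -1.80, SE 0.024, edgeR adjusted p = 6.82e-35), with every P library below every D1 library. Both receptors were thus lower in PAC1-P, while Insr, the insulin receptor, was at 3100 ± 71.5 in D1 and 3176 ± 64.0 in P (SD, n = 3), a log2 difference of 0.03 (95% interval -0.05 to 0.11).

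Igfbp4, a binding protein known mainly as an inhibitor of IGF action, had 375, 311 and 346 scaled counts in D1 and 9232, 8915 and 9808 in P. This was 26.9-fold higher in P (log2 fold change 4.75, SE 0.050, edgeR adjusted p = 7.01e-38). Igfbp3, the main IGF carrier in serum, had 0 counts in all D1 libraries and 63, 52 and 50 in P. Against the limit of 6 counts per library it was at least 8.48-fold higher in P. The authors' normalised values hold no entry for Igfbp3, so its difference could not be checked on them. Igfbp2 had few counts, 2, 12 and 13 in D1 and 35, 56 and 70 in P, or 9.22 ± 6.23 and 50.8 ± 16.8 scaled counts (SD, n = 3). The groups did not overlap, and the log2 fold change was 2.44 (SE 0.42, edgeR adjusted p = 4.35e-06). On the authors' normalised values, where a constant of 35 lies under every value, Igfbp2 differed by 0.75 on the log2 scale and was not called.

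Igfbp7, a secreted protein that binds IGFs weakly, had 61573, 63101 and 60254 scaled counts in D1 and 2752, 2549 and 2624 in P. It was 23.4-fold lower in P (log2 fold change -4.55, SE 0.031, edgeR adjusted p = 4.70e-43). Igfbp6, which prefers IGF2 over IGF1, had 21740, 21516 and 21982 in D1 and 8881, 8186 and 8858 in P. That was a 2.53-fold lower level (log2 fold change -1.34, SE 0.028, edgeR adjusted p = 2.33e-29). Igfbp5, which can bind to the matrix, had 679, 669 and 657 in D1 and 284, 256 and 271 in P. It was 2.48-fold lower (log2 fold change -1.31, SE 0.084, edgeR adjusted p = 1.23e-15), and none of these 3 genes overlapped between the groups. The share of all genes without overlap was not counted. Igfbp2 and Igfbp5 are neighbours on rat chromosome 9, on opposite strands, and moved in opposite directions in P. In the annotation of GRCr8 the spans of Igf1r and Pgpep1l overlap, as do those of Igfbp7 and Polr2b, and since the strand setting of the counting was not given in the sources used here, shared reads cannot be told apart there. The same holds for Igf2r and the uncharacterised LOC120100462.

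After knockdown of Rbpms, Igfbp5 fell, Igf1r was modestly lower, Igf2r and Igfbp4 were modestly higher, and for Igfbp6 and Igfbp7 no difference from D1 passed the test. Of the 7 genes tested, 1 was called lower and 0 higher, and 4 had an adjusted p under 0.05. Over all 15904 genes, 3.06% were called higher, 1.62% lower and 59.1% had an adjusted p under 0.05, so the share of 4 in 7 was near that background. The 0 called higher stood beside 2 genes, Igf2r and Igfbp4, that were higher below the fold threshold.

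Igfbp5 had 256, 190 and 182 scaled counts in RBPMS KD1, all below the 657 to 679 of D1. It was 3.19-fold lower (log2 fold change -1.67, SE 0.10, edgeR adjusted p = 2.58e-14). Igf1r had 6579, 6300 and 6437, or 74.4% of D1 (log2 fold change -0.43, SE 0.029, adjusted p = 3.58e-13 by edgeR). Igf2r had 81033, 80345 and 79259 against 46467 to 47643 in D1. It was 1.70-fold higher (log2 fold change 0.77, SE 0.024, edgeR adjusted p = 8.44e-21), so that Igf1r and Igf2r moved in opposite directions here and in the same direction in P. Igfbp4 had 560, 540 and 492, which was 1.54-fold higher than D1 (log2 fold change 0.62, SE 0.090, edgeR adjusted p = 7.08e-07) and far below the P libraries.

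Igfbp6 had 22295, 22315 and 20564 scaled counts in RBPMS KD1, on both sides of the D1 libraries. The 95% interval of its log2 difference from D1 was -0.06 to 0.06. Igfbp7 had 61150, 63315 and 65987, overlapping D1, with an interval of -0.01 to 0.10. Igfbp2 had 2, 13 and 7 counts, and its interval of -1.60 to 0.98 was too wide to exclude a change of the size of the fold threshold in the lower direction. Igfbp3 had 0, 0 and 2 counts and was not tested. Insr, which did not differ detectably in P, was at 2036 ± 45.4 (SD, n = 3) in RBPMS KD1, or 65.8% of D1 (log2 fold change -0.60, edgeR adjusted p = 2.40e-13).

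Knockdown of Mbnl1 and Mbnl2 together lowered Igfbp5 and Igfbp6 past the fold threshold, and lowered Igf2r and Igfbp4 by less. Of the 7 genes tested, 2 were called lower and 0 higher, and 5 had an adjusted p under 0.05. Among all 16053 genes, 6.1% were called higher, 4.14% lower and 67.5% had an adjusted p under 0.05. The median log2 fold change of the 7 genes was -0.59, beside 0.0099 over all genes.

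Igfbp5 had 148, 115 and 96.3 scaled counts in MBNL KD, the lowest level of the 4 groups. It was 5.55-fold lower than in D1 (log2 fold change -2.47, SE 0.11, edgeR adjusted p = 6.60e-18), and -2.34 without MBNL KD replicate 3. Igfbp6 had 10329, 10086 and 10156 against 21516 to 21982 in D1. This was 2.13-fold lower (log2 fold change -1.09, SE 0.024, edgeR adjusted p = 7.82e-26), and the value without replicate 3 was also -1.09. Igf2r had 36090, 35560 and 35811, or 76.1% of D1 (log2 fold change -0.39, SE 0.025, edgeR adjusted p = 1.04e-14). Igfbp4 had 223, 252 and 210, or 66.5% of D1 (log2 fold change -0.59, SE 0.11, edgeR adjusted p = 2.60e-05), and -0.53 without replicate 3. In each of these 4 genes every MBNL KD library lay below every D1 library, but the share of all genes separated in this way was not counted.

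Igf1r had 8469, 8825 and 8894 scaled counts in MBNL KD, overlapping D1, and the 95% interval of its log2 difference was -0.04 to 0.07. Igfbp7 had 58530, 57006 and 59719, just below the D1 libraries (log2 fold change -0.08, SE 0.025, edgeR adjusted p = 0.00917). That direction turned under quantile normalization, where the difference was 0.06, and on the authors' normalised values, where it was 0.05, so no direction is drawn for Igfbp7. Igfbp2 had 12, 4 and 1 counts, with an interval of -2.08 to 0.76 around -0.66, which was -1.78 without MBNL KD replicate 1 and -0.21 without MBNL KD replicate 3, and Igfbp3 had 2, 0 and 0 counts.

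**Figure D2:**
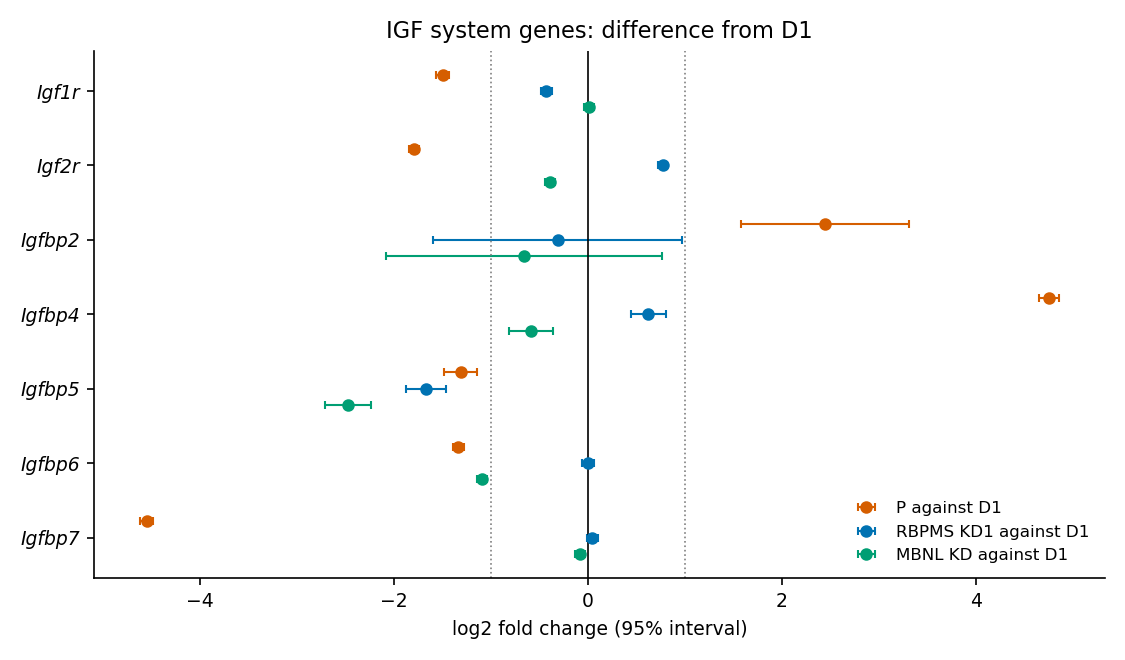
Log2 fold change from D1 (x axis) of 7 IGF system genes in P, RBPMS KD1 and MBNL KD by edgeR, with 95% intervals and dotted lines at the fold threshold; Igfbp3, at 0 counts in D1, is left out. Igfbp5 lies left of the lower line in all 3 comparisons (-1.31, -1.67 and -2.47), and Igf2r and Igfbp4 lie on opposite sides of 0 in the knockdowns.

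The 3 comparisons with D1 share its libraries, so the knockdowns were also compared with each other directly. Of 6 genes tested, 3 were called higher in RBPMS KD1 than in MBNL KD and 0 lower, and all 6 had an adjusted p under 0.05. Of all 16111 genes, 6.03% were called higher, 5.88% lower, and 69.5% had an adjusted p under 0.05. The called genes were Igf2r, 2.25-fold higher in RBPMS KD1 (log2 difference 1.17, SE 0.025, edgeR adjusted p = 1.92e-26), Igfbp4, 2.33-fold higher (1.22, SE 0.098, edgeR adjusted p = 2.90e-12), and Igfbp6, 2.14-fold higher (1.10, SE 0.029, edgeR adjusted p = 5.17e-24). Igfbp5 differed by 0.81 (SE 0.16, edgeR adjusted p = 6.54e-05), with 182 to 256 scaled counts in RBPMS KD1 and 96.3 to 148 in MBNL KD. Its difference reached 1.00 without MBNL KD replicate 1 and was then called, and it was 0.68 without replicate 3. Igf1r was lower in RBPMS KD1 by 0.43 on the log2 scale (log2 difference -0.43, SE 0.029, edgeR adjusted p = 4.04e-14). Igfbp7 differed by 0.12 (SE 0.028, edgeR adjusted p = 2.30e-04), which was -0.0018 under quantile normalization.

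Ordered by group mean, Igf2r thus ran from P through MBNL KD and D1 to RBPMS KD1 (13621 ± 66.0, 35820 ± 265, 47103 ± 594 and 80212 ± 895 scaled counts, SD, n = 3), with no overlap between neighbours. Igfbp4 ran from MBNL KD (228 ± 21.5) through D1 (344 ± 32.1) and RBPMS KD1 (531 ± 34.9) to P (9318 ± 453), again without overlap. Igf1r ran from P (3079 ± 168) through RBPMS KD1 (6439 ± 139) to D1 (8664 ± 149) and MBNL KD (8729 ± 228), of which the last pair overlapped. Igfbp6 was lowest in P (8642 ± 395), then MBNL KD (10191 ± 125), while RBPMS KD1 and D1 overlapped at 21725 ± 1005 and 21746 ± 233. Igfbp5 ran from MBNL KD (119.8 ± 26.3) through RBPMS KD1 (209.5 ± 40.5) and P (270.4 ± 14.0), which overlapped, to D1 (668 ± 11.1).

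By a fixed rule, the genes most like the members with the widest range of group means were sought by Pearson correlation of log2 CPM over the 12 libraries among 17511 genes. For Igfbp4 they were Elf4 (r = 0.999), Eci3 (0.998) and Bhlhe41 (0.998), and for Igfbp3 they were LOC103694504 (0.994), Poli (0.993) and Pnldc1 (0.992). These values describe the pattern, and the points fall into the P libraries and the rest, so that they rest largely on that gap. The group means of Elf4, Eci3 and Bhlhe41 kept the group order of Igfbp4. These genes were picked for likeness to Igfbp4 over the same libraries, so the shared order is no separate result. Bhlhe41, a circadian transcription repressor, ran from a mean of 376 ± 13.3 scaled counts for MBNL KD through 481 ± 31.9 for D1 and 835 ± 52.7 for RBPMS KD1 up to 9998 ± 141 for P (SD, n = 3).

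The wider pathway was read from 56 further genes, of which 55 were matched in the count table; Pappa was not matched and is not analysed here. In P against D1, 8 of 51 tested were called higher and 7 lower, and 45 had an adjusted p under 0.05, beside 16.4%, 11.2% and 77.9% of all genes. Of the 8, 5 (Insrr, Pappa2, Stc2, Igf2bp1 and H19) passed the filter on low counts only through P, so their calls followed from being tested. In RBPMS KD1, 0 of 46 were called higher and 2 lower, with 37 at an adjusted p under 0.05, beside 3.06%, 1.62% and 59.1% of all genes. In MBNL KD, 5 of 49 were called higher and 4 lower, with 42 at an adjusted p under 0.05, beside 6.1%, 4.14% and 67.5%. There Pappa2, Stc2 and H19 passed the filter only through MBNL KD, and Igfals only through D1. Between the knockdowns, 1 of 48 was called higher in RBPMS KD1 (Htra1) and 5 lower (Pappa2, Adam12, Stc2, H19, Mtor), with 43 at an adjusted p under 0.05, beside 6.03%, 5.88% and 69.5% of all genes, and 3 of the 5 (Pappa2, Stc2, H19) were tested only through MBNL KD. The median log2 fold changes in P, RBPMS KD1 and MBNL KD were 0.04, -0.14 and -0.11, beside 0.020, 0.0043 and 0.0099 over all genes.

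Among the other ligands, receptors and carriers, Insrr, the insulin receptor-related receptor, had 0 counts in D1, RBPMS KD1 and MBNL KD and 24, 34 and 41 in P. Against the limit of 6 counts per library it was at least 5.09-fold higher in P. Igfals, the acid-labile subunit that carries IGF complexes, was called lower in MBNL KD (log2 fold change -1.45, edgeR adjusted p = 0.0249) at 4.77 ± 2.03 scaled counts against 13.3 ± 1.72 in D1 (SD, n = 3). It passed the filter only through D1, the group where it was higher, so the call is given as a description. The Igfals call was lost when MBNL KD replicate 2, MBNL KD replicate 3 or D1 replicate 3 was left out, with adjusted p of 0.106, 0.0613 and 0.0862, and also with DESeq2 (0.0551), without the filter (0.0670) and on the authors' normalised values, where the log2 difference was -0.36. Ins2, the insulin gene beside Igf2 on chromosome 1, was at 389 ± 34.3 scaled counts in MBNL KD and at 209 ± 19.3 in D1 (log2 fold change 0.90, edgeR adjusted p = 1.95e-08), and its span overlaps LOC108349673. Igfbp1, next to Igfbp3 on chromosome 14, had 0 counts in all libraries. Of the 7 genes of this list, only 4 were tested in P, 3 in RBPMS KD1 and 3 in MBNL KD. Their median log2 fold changes were 0.15, -0.60 and 0.22. They include Insrr in P and Igfals in the knockdowns, which passed the filter through 1 group alone. In P 1 was called higher and in MBNL KD 1 lower, beside 16.4% and 4.14% of all genes.

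Among the proteases that cut IGF binding proteins and the stanniocalcins that inhibit the pappalysins, 2 of the 5 tested in P were called higher and 1 lower, beside 16.4% and 11.2% of all genes. The 2 called higher, Pappa2 and Stc2, were those tested only through P. Of the 3 tested in RBPMS KD1, 1 was called lower, beside 1.62% of all genes. In MBNL KD, 2 of the 5 tested were called higher, again Pappa2 and Stc2 and only through MBNL KD, and 2 lower, beside 6.1% and 4.14%. The median log2 fold changes of the genes tested were -0.26, -0.92 and -0.03.

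Htra1, a secreted serine protease, had 31367, 29903 and 29618 scaled counts in MBNL KD against 83277 to 84274 in D1. It was 2.77-fold lower there (log2 fold change -1.47, SE 0.026, edgeR adjusted p = 3.96e-28), and 2.47-fold lower than in RBPMS KD1 (edgeR adjusted p = 6.45e-26). Adam12, a metalloprotease able to cleave Igfbp3 and Igfbp5, had 13715, 13282 and 14438 in RBPMS KD1 against 38390 to 40177 in D1. That was 2.83-fold lower (log2 fold change -1.50, SE 0.029, edgeR adjusted p = 2.34e-25), while Adam12 in MBNL KD overlapped D1, with a 95% interval of -0.08 to 0.03. The direct comparison of the knockdowns gave a log2 difference of -1.47 for Adam12 (SE 0.029, edgeR adjusted p = 4.37e-27). Below the fold threshold, Htra1 was also lower in P and RBPMS KD1 (log2 fold changes -0.26 and -0.17, edgeR adjusted p = 4.10e-12 and 2.27e-06), and Adam12 in P (-0.40, edgeR adjusted p = 6.94e-16).

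Stc1, stanniocalcin 1, fell in P from 2301 ± 59.4 to 227 ± 34.1 scaled counts (SD, n = 3), and to 828 ± 58.8 in MBNL KD. Its log2 fold changes were -3.35 in P (SE 0.072, edgeR adjusted p = 4.24e-29) and -1.47 in MBNL KD (SE 0.054, edgeR adjusted p = 3.45e-20). It was at 1212 ± 56.6 in RBPMS KD1 (log2 fold change -0.92, edgeR adjusted p = 1.28e-15). Stc2, its paralog, was at 5.45 ± 1.15 in D1, 601 ± 5.27 in P and 52.7 ± 6.83 in MBNL KD (SD, n = 3), with 4.04 ± 2.03 in RBPMS KD1. Stc2 was tested only through P and through MBNL KD, and its levels are given as a description. In P and MBNL KD they lay above D1, where those of Stc1 lay below. Pappa2, the pappalysin 2 gene, had 0, 2 and 0 counts in D1, 28, 20 and 24 in P, 2, 8 and 6 in RBPMS KD1, and 24, 22 and 10 in MBNL KD. The ratio of its pooled counts to D1, per library size, was 33.3 in P and 28.0 in MBNL KD, with 95% exact binomial intervals, on counts halved for the mates, of 5.61 to 1351 and 4.63 to 1146. The intervals pool the libraries and leave out the spread between them. Pappa2 passed the filter only through P and through MBNL KD, so ratios and intervals are a description and not a test. The 2 counts of D1 replicate 2 decide these ratios, since without that library Pappa2 had 0 counts in D1.

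The RNA-binding proteins that bind Igf2 mRNA, and H19, the long non-coding RNA beside Igf2, were called higher in P in 3 of the 4 tested and lower in 1, beside 16.4% and 11.2% of all genes, but Igf2bp1 and H19 were tested only through P. Igf2bp1 had 2, 3 and 6 counts in D1 and 1360, 1350 and 1327 in P (log2 fold change 8.36, SE 0.16). It had 0, 1 and 0 counts in RBPMS KD1 and 5, 7 and 18 in MBNL KD and was tested in neither. Igf2bp2 was at 1322 ± 41.4 scaled counts in D1 and rose to 6046 ± 89.6 in P and to 2887 ± 61.9 in MBNL KD (SD, n = 3). Those log2 fold changes were 2.19 (SE 0.038, edgeR adjusted p = 9.45e-32) and 1.13 (SE 0.045, edgeR adjusted p = 1.80e-19). Igf2bp3 went the other way in P, from 6200 ± 210 to 2282 ± 42.2 (SD, n = 3; log2 fold change -1.45, SE 0.035, edgeR adjusted p = 1.78e-27).

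H19 had 2, 4 and 0 counts in D1, 45, 69 and 159 in P, 4, 2 and 6 in RBPMS KD1, and 26, 20 and 14 in MBNL KD. The P libraries were the highest and differed widely among themselves, and MBNL KD lay between them and the other groups without overlap. The ratio of pooled counts to D1 was 42.1 in P and 10.0 in MBNL KD, with intervals of the same kind of 14.0 to 206 and 3.11 to 51.3. H19 passed the filter only through P and through MBNL KD, so its ratios, intervals and fold changes are likewise a description. The edgeR log2 fold change in P was 5.31, 6.23 without D1 replicate 2 and 4.64 without P replicate 3, and in MBNL KD it was 3.24, and 4.15 without D1 replicate 2. H19 overlaps LOC102548505 and Mir675 in GRCr8, and its neighbour Igf2 stayed at 8 counts or fewer in all libraries.

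**Figure D3:**
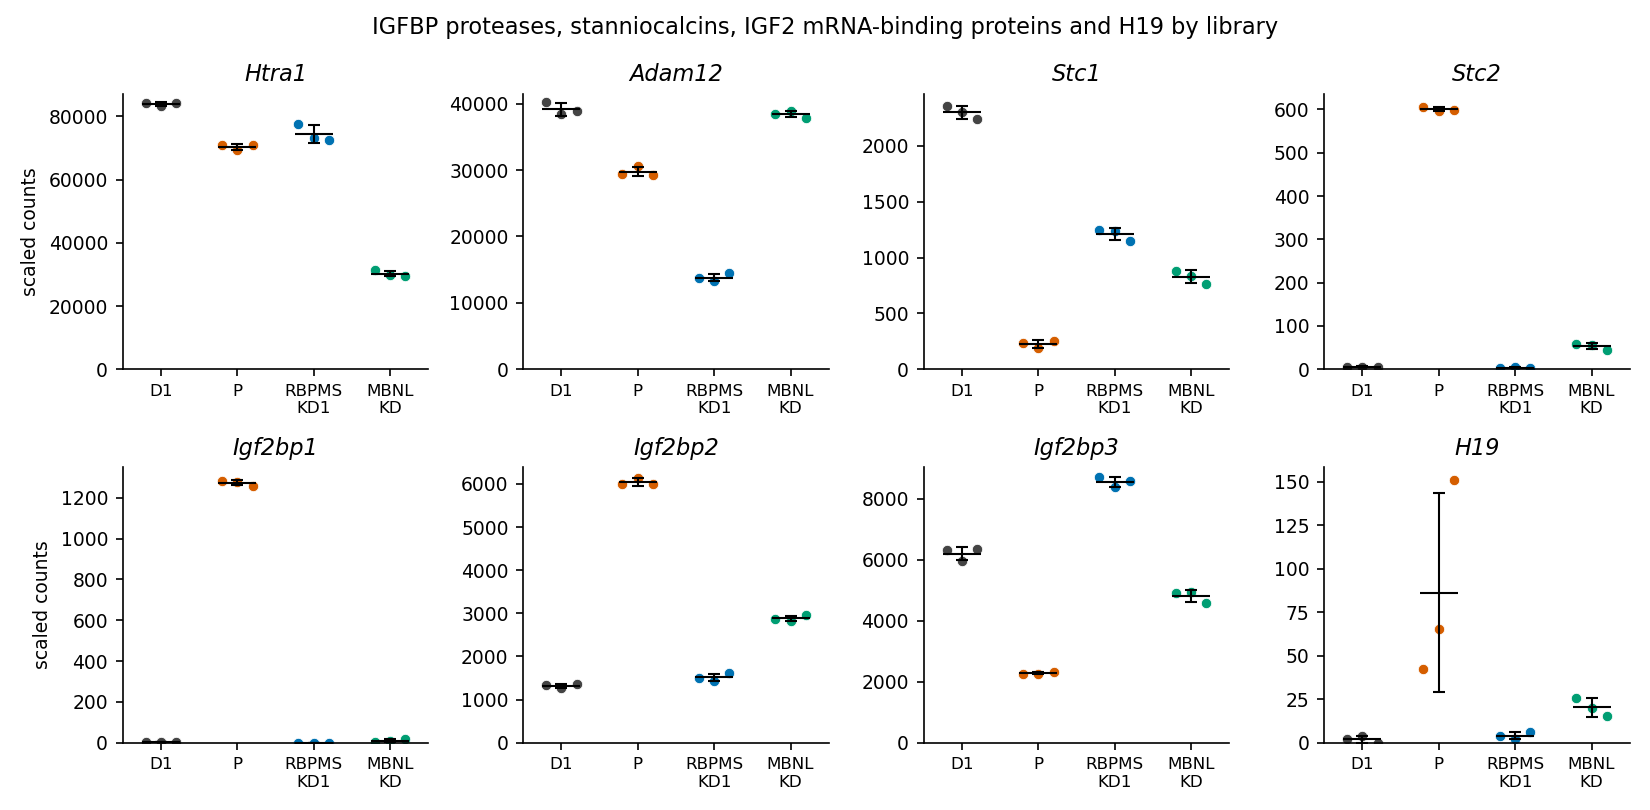
Scaled counts of 8 regulators of IGF binding proteins or of Igf2 mRNA in the 4 groups, with 1 point per library, the mean as a line and the SD over 3 libraries as bars, on linear axes from 0 that differ between panels. Htra1 is low in MBNL KD and Adam12 in RBPMS KD1, Stc1 and Stc2 lie on opposite sides of their D1 levels in P, and Igf2bp1 is near 0 outside P.

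Downstream of the receptors, most genes changed by less than the fold threshold. Of 14 receptor substrates and adaptors, 1 was called higher and 2 lower in P, 0 in RBPMS KD1, and 1 lower in MBNL KD, with 12, 10 and 12 at an adjusted p under 0.05 by edgeR, beside 77.9%, 59.1% and 67.5% of all genes. The shares of all genes called were 16.4% higher and 11.2% lower in P, 3.06% and 1.62% in RBPMS KD1, and 6.1% and 4.14% in MBNL KD. Grb10, an adaptor that restrains insulin and IGF receptor signalling, rose in P to 66716 ± 967 scaled counts from 25172 ± 879 (SD, n = 3; log2 fold change 1.40, SE 0.026, edgeR adjusted p = 4.85e-31). Its relative Grb14 fell to 6041 ± 241 from 18249 ± 179 (log2 fold change -1.60, SE 0.029, edgeR adjusted p = 1.99e-31), and Socs2, a suppressor of growth hormone signalling, fell to 1606 ± 37.4 from 7521 ± 13.2 (log2 fold change -2.23, SE 0.035, edgeR adjusted p = 3.42e-33). Gab2, a docking adaptor, was called lower in MBNL KD, at 3233 ± 93.3 against 7216 ± 22.3 in D1 (log2 fold change -1.16, SE 0.031, edgeR adjusted p = 9.42e-24). Irs1, the main docking substrate of the receptor, was higher by 0.27, 0.16 and 0.19 on the log2 scale in P, RBPMS KD1 and MBNL KD (edgeR adjusted p = 7.23e-05, 0.0185 and 0.00541). The medians of the 14 genes were 0.27, -0.02 and -0.13.

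In the PI3K, AKT and mTOR list, 24 genes were tested in each comparison, and 22, 21 and 20 had an adjusted p under 0.05 in P, RBPMS KD1 and MBNL KD, beside the same 77.9%, 59.1% and 67.5%. Called higher and lower in P were 1 and 3, beside 16.4% and 11.2% of all genes. The numbers were 0 and 1 in RBPMS KD1, beside 3.06% and 1.62%, and 1 and 0 in MBNL KD, beside 6.1% and 4.14%. In P, Pik3cb, a widely expressed catalytic subunit of PI3K, was called higher (log2 fold change 1.20). Pik3cd, another catalytic subunit, Pik3r3, a regulatory subunit, and Foxo1, a transcription factor that AKT keeps out of the nucleus, were called lower (log2 fold changes -1.56, -2.17 and -1.14). Pik3cd and Pik3r3 each overlap an uncharacterised gene of the count table in GRCr8, and Mtor overlaps Angptl7.

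Mtor, the kinase at the end of the pathway, had 3209, 3162 and 3328 scaled counts in RBPMS KD1 against 8908 to 9018 in D1. It was 2.77-fold lower (log2 fold change -1.47, SE 0.031, edgeR adjusted p = 2.28e-24), the 1 called gene of this list there, and the difference from MBNL KD was -1.53 (SE 0.031, edgeR adjusted p = 4.91e-27). In P, Mtor was at 9366 ± 166 (SD, n = 3), a log2 difference of 0.06 from D1 with a 95% interval of 0.0018 to 0.11. After adjustment over all genes it did not pass the threshold (edgeR adjusted p = 0.0552). Eif4ebp1, a translation repressor that mTOR inactivates, rose in MBNL KD to 15909 ± 665 from 7551 ± 174 in D1 (SD, n = 3; log2 fold change 1.08, SE 0.027, edgeR adjusted p = 2.56e-24). The medians over the 24 genes were -0.10, -0.23 and -0.09.

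**Figure D4:**
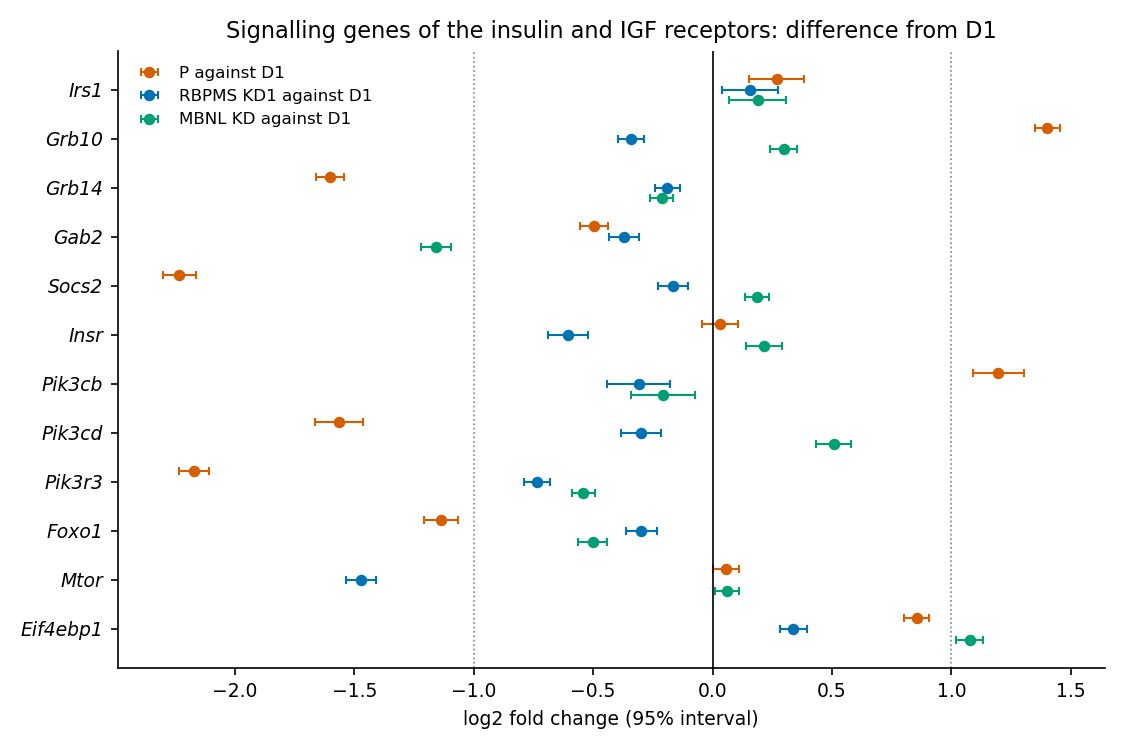
Log2 fold change from D1 (x axis) of 12 signalling genes of the insulin and IGF receptors by edgeR, with 95% intervals and dotted lines at the fold threshold; they are the called genes of both lists with Irs1 and Insr. Mtor passes the lower line in RBPMS KD1 (-1.47) and Gab2 in MBNL KD (-1.16), and the 7 genes past a line in P stay within both lines in the knockdowns.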

How the data were processed

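Poly(A) RNA of PAC1 cells was sequenced as stranded paired-end libraries. Per the methods and labels, reads were subsampled with seqtk to 55 M per sample, aligned with STAR 2.7.11b to mRatBN7.2 and counted per gene with featureCounts and the RefSeq annotation, giving the deposited raw counts, which were not normalized. The strand setting and the counting of mates are not given in the sources used here; library totals above 55 M and an excess of even low counts show that mates were largely counted apart. The deposited normalised signal values were made by the authors with noisyR and quantile normalization, and were used only in an alternative. Groups came from the sample labels.

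Counts were tested in R 4.3.3 with edgeR 4.0.16 (filterByExpr on the 6 libraries compared, TMM, quasi-likelihood F test, Benjamini-Hochberg adjustment over all genes tested), with P, RBPMS KD1 and MBNL KD each against D1 and RBPMS KD1 against MBNL KD. Standard errors are the log2 fold change over the square root of F. Scaled counts are counts divided by the TMM library factor relative to the geometric mean library. DESeq2 1.42.0 and limma 3.58.1 served as alternatives. The edgeR fit of P against D1 was tested on simulated data with known changes. Nothing says that libraries came from separate cultures beyond the study's statement of biological replicates, so p-values measure the spread between these libraries, and an exact permutation test of 3 against 3 cannot go below 0.1. Promoter windows and gene neighbours come from RefSeq tables of GRCr8, in which all 10 genes were matched; mRatBN7.2 coordinates were not used. No batch is labelled.

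The genes and lists were chosen with earlier results of these data known. Named are the 10 genes, every gene of the fixed pathway lists called in at least 1 comparison, Insr, Irs1, H19, Igf2bp1, chromosomal neighbours, the siRNA targets, and the 3 most correlated genes for the 2 members of widest range. Alternatives were other normalizations, filters and tests, halved counts, 1 fit of all libraries, a replicate block and leaving out each library.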

Additional observations from a re-analysis of the deposited data

Results flagged for a closer look

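Igf2r and Igfbp4 differed between the knockdowns in the direct comparison, and their differences from D1 had opposite signs. Igf2r was higher in RBPMS KD1 than in MBNL KD by 1.17 on the log2 scale (higher in 3 of 3 libraries), beside log2 fold changes of 0.77 in RBPMS KD1 and -0.39 in MBNL KD against D1. Igfbp4 was higher by 1.22 (3 of 3 libraries), beside 0.62 and -0.59 against D1. Groups of 3 libraries are too small to decide whether a single library, such as MBNL KD replicate 3, is an outlier.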

How the results depend on the processing

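The number of the 10 genes called stayed within 1.5 times its value under every alternative run. Over all genes, P against D1 gave 2933 called with at least 10 counts in every library (4641 in the analysis as reported), a filter that removes genes near 0 in D1. With limma on the authors' normalised values, 209 genes were called in RBPMS KD1 (745 as reported), 784 in MBNL KD (1643) and 1050 between the knockdowns (1920), and the cause was not tested. Values near 0 changed sign. Igfbp6 in RBPMS KD1 (0.00019) was -0.00072 with DESeq2's size factors and with DESeq2, -0.0030 without a filter, -0.0014 in 1 fit of all libraries and -0.019 to 0.039 with a library left out. Igfbp7 in MBNL KD (-0.08) was 0.056 under quantile normalization and 0.054 on the normalised values, and between the knockdowns (0.12) it was -0.0018 under quantile normalization. With a library left out, Igfbp2 in RBPMS KD1 ran from -1.0 to 0.13 and Igf1r in MBNL KD from -0.0059 to 0.033. Among single values of the 10 genes, 395 kept direction and side of the threshold, 16 changed sign, 1 gained a call and 1 lost it. Genes that an alternative left out are not in these numbers. Igfbp3 has no normalised value, and Igfbp2 and Igfbp3 were not tested in P with at least 10 counts in every library. Their calls in P are absent there. Called pathway genes numbered 4 rather than 2 in RBPMS KD1 in the fit of all libraries, and 5 rather than 9 in MBNL KD and 3 rather than 6 between the knockdowns at 10 counts. On the normalised values Pappa2 and H19 lost their calls in MBNL KD (0.57 and 0.56) and between the knockdowns (-0.39 and -0.49), and Pappa2 also in P (0.60). Igfals lost its MBNL KD call in 6 alternatives.

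Replicates with the same number did not deviate together (correlations -0.022 to 0.020), so no pairing was assumed. With the replicate number as a block, 8, 1, 2 and 3 of the 10 genes were called in P, RBPMS KD1, MBNL KD and between the knockdowns, as without it, and 4593, 730, 1634 and 1915 of all genes. Igfbp6 in RBPMS KD1 was -0.00073 with the block. Depth limits Igf2, Igfbp2 and Igfbp3, whose counts stayed under 20 in the PAC1-D groups.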
